A study of Gallus gallus with 14 samples.

Results

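The genes described here lay out the retina along its axes: FOXD1, EPHA3, EFNA2 and EFNA5 on the nasal-temporal axis, and TBX5, TBX2, VAX2, EFNB2 and EPHB2 on the dorsal-ventral axis. They were chosen by symbol, without regard to their level, from the deposited gene table. Of the 9 symbols, 8 had a row among 18631 genes, and VAX2, a ventral transcription factor, was not analysed here. The table holds RNA sequencing of retinas from wild-type White Leghorn chickens, all labelled postnatal day 3, with 7 control libraries and 7 libraries from eyes that had worn a lens of -10 D for 3 days, a treatment that blurs the image and brings on myopia. The labels do not say which area of the retina was collected, whether the libraries came from separate birds, or whether the controls wore a plain mount. The p-values therefore measure the spread between these libraries, which may in part be technical.

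In the embryonic eye, transcription factors restricted to one pole give retinal ganglion cells their position, and those factors set graded levels of Eph receptors and ephrins. Eph receptors are membrane tyrosine kinases, and ephrins are the membrane-bound ligands on neighbouring cells. In the chick tectum, temporal axons rich in EphA receptors avoid cells rich in ephrin-A, and EphB and ephrin-B serve the dorsal-ventral map. Whether these embryonic gradients last to postnatal day 3 was not tested here. If they do, the genes offer a check on whether libraries differed in the area of retina that they held. A shift in area would then raise genes of one pole and lower those of the other.

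All values are CPM, read counts that the authors scaled to the size of each library, with an added offset of 0.0001 taken off. CPM depends on gene length, so levels are compared between libraries and not between genes. The step that 1 read is worth put the libraries at about 30800000 to 41400000 reads, and a count of 3 reads at 0.0724 to 0.0973 CPM. Of 8 retina markers, 7 were listed and tested, with summed levels of 788 to 1098 CPM in controls and 781 to 983 CPM after lens wear. HINTW, a gene of the female-specific W chromosome, was above 10 CPM in 5 libraries, namely control replicates 2, 3, 4 and 7 and lens replicate 4, and below 1 CPM in the other 9. W-linked RNA was thus uneven between the groups, which matters for FOXD1 and EFNA5, both carried on chromosome Z.

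Lens wear was compared with control by limma's moderated test on log2(CPM + 1), with Benjamini-Hochberg adjustment over the 14259 genes that passed a filter on low values. Of the 8 topographic genes, 7 passed that filter, and EFNA2 did not, with 1 to 7 reads a library. None of the 7 was called at an adjusted p under 0.05 (limma), against 11 genes or 0.0771% of all genes tested. With the p unadjusted, 1 of 7 was under 0.05, TBX2, against 13.5% of all genes. No topographic gene had lens and control libraries that did not overlap, which 0.266% of all genes had. All 7 differences were below 0, as were 63.3% of those of all genes. EPHA3 turned to 0.02 after median ratio scaling, and FOXD1 to 0.0055 among the libraries without W-linked RNA.

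**Figure D1:**
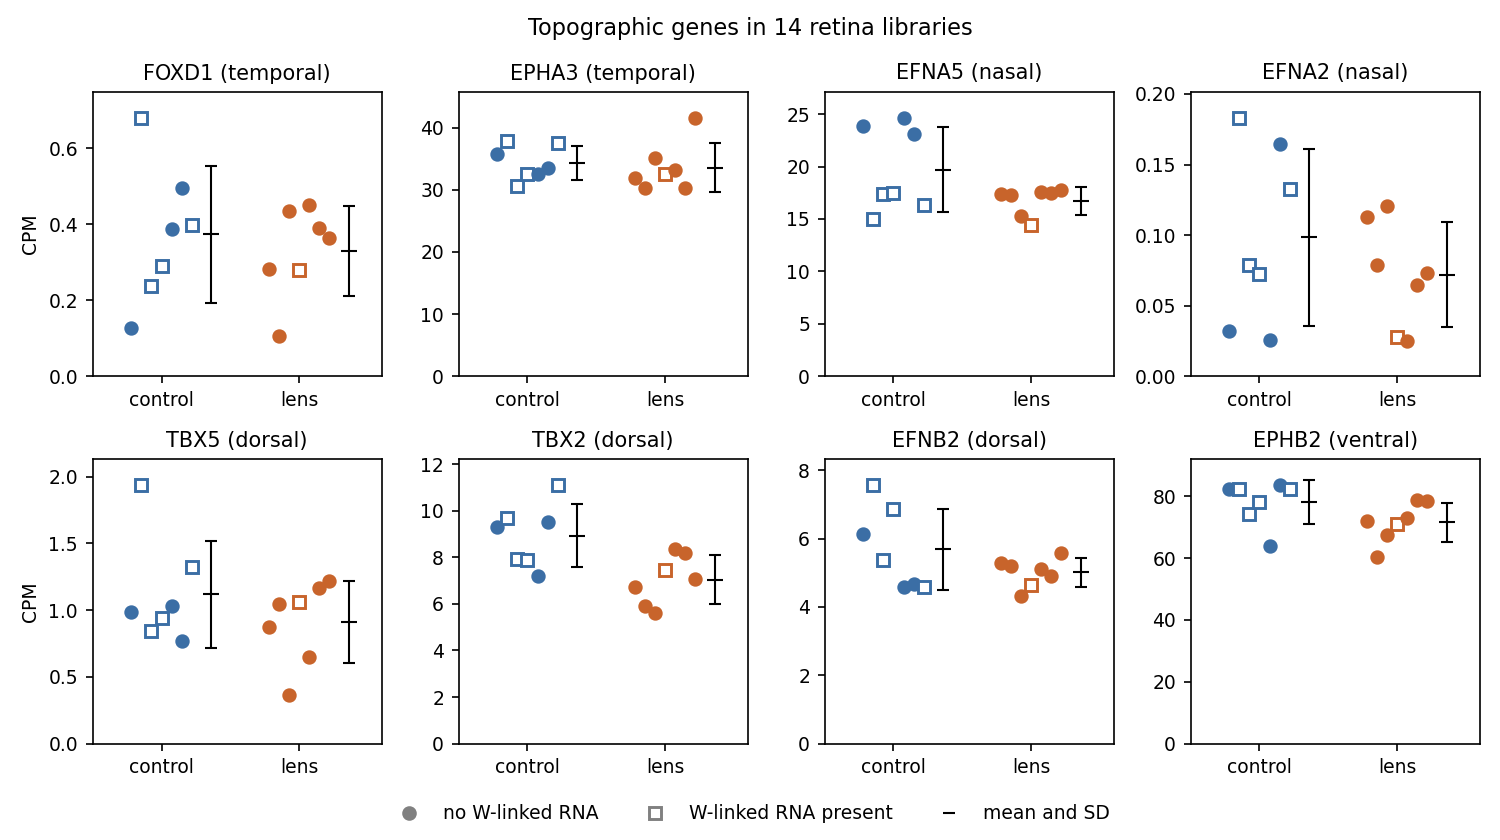
CPM of the 8 listed topographic genes in each of the 14 libraries, control (blue) and lens (orange), on linear axes from 0. Open squares are the 5 libraries with W-linked RNA, filled circles the other 9, and bars show the mean and SD of 7 libraries; lens and control libraries overlapped for every gene, and EFNA5 was highest in 3 control libraries without W-linked RNA.

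Among the transcription factors, FOXD1 sets temporal identity and lies on chromosome Z at 24754425-24756453 (plus strand, GRCg6a). It had only 4 to 26 reads a library, from 0.127 through a median of 0.387 to 0.680 CPM in controls and from 0.105 through 0.365 to 0.449 CPM after lens wear. The group means were 0.373 ± 0.181 and 0.329 ± 0.119 CPM (SD, n = 7 each), and the lens libraries lay within the control range but for replicate 2, just below it. The log2 difference was -0.04 (SE 0.08, adjusted p 0.859 by limma). At this depth a difference in FOXD1 smaller than its spread between libraries was not detectable.

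TBX5, a dorsal factor at chromosome 15, 12598201-12638589 (plus strand), ranged from 0.769 through 0.987 to 1.94 CPM in controls and from 0.363 through 1.05 to 1.22 CPM after lens wear. Control replicate 2 stood highest and lens replicate 3 lowest, 5.34-fold apart. Lens replicates 3 and 5 were below every control library, and the other lens libraries were among the controls. Means of 1.12 ± 0.401 and 0.912 ± 0.309 CPM (SD, n = 7 each) gave a log2 difference of -0.15 (SE 0.12, adjusted p 0.623 by limma). It was -0.07 without control replicate 2, -0.07 without lens replicate 3 and -0.05 in the libraries without W-linked RNA.

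TBX2, another of the dorsal T-box factors, lies at chromosome 19, 7778201-7787048 (minus strand). It ran from 7.19 through 9.30 to 11.1 CPM in controls and from 5.61 through 7.07 to 8.36 CPM after lens wear. Lens replicates 1, 2, 3 and 7 were below every control library, and lens replicates 4, 5 and 6 were within the control range. Means were 8.93 ± 1.35 and 7.04 ± 1.05 CPM (SD, n = 7 each), so that the lens mean was 21.2% lower. The log2 difference of -0.30 (SE 0.10, p 0.00704) did not pass adjustment (0.207 by limma). It stayed between -0.35 and -0.26 when each library was left out in turn. Over the 13 other settings it ran from -0.35 to -0.21 (adjusted p 0.122 to 0.617 by limma).

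Of the ligands, EFNB2, dorsal in the embryonic retina and placed at chromosome 1, 142513096-142554064 (plus strand), ran from 4.59 through 5.36 to 7.56 CPM in controls and from 4.33 through 5.12 to 5.59 CPM after lens wear. Control replicates 1, 2 and 4 were above every lens library and the other 4 were among them. Means of 5.68 ± 1.20 and 5.01 ± 0.423 CPM (SD, n = 7 each) gave a log2 difference of -0.14 (SE 0.10, adjusted p 0.583 by limma). It was -0.07 without control replicate 2 and -0.0087 in the libraries without W-linked RNA. EFNA2, a nasal ligand at chromosome 28, 3202721-3234193 (plus strand), was at 0.0258 to 0.183 CPM in controls and 0.0250 to 0.121 CPM after lens wear. Most of these values are at or near the worth of 3 reads, so no direction was read from them.

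Among the receptors, EPHA3, the temporal receptor for ephrin-A at chromosome 1, 90417946-90639026 (plus strand), was at 30.7, 33.5 and 37.9 CPM (lowest, median, highest) in controls and 30.3, 32.6 and 41.6 CPM after lens wear. Apart from lens replicate 7, the highest of all 14, the libraries of both groups covered nearly the same range. The log2 difference was -0.03 (SE 0.07, adjusted p 0.857 by limma). EPHB2, the ventral receptor for ephrin-B at chromosome 21, 5947612-6053708 (minus strand), was at 63.9, 82.3 and 83.5 CPM in controls and 60.5, 71.9 and 78.7 CPM after lens wear. Control replicates 1, 2, 6 and 7 were above every lens library, while control replicate 5 was below all but lens replicate 2. The log2 difference was -0.12 (SE 0.07, adjusted p 0.431 by limma).

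EFNA5, the nasal ephrin-A ligand that repels temporal axons, lies on chromosome Z at 48131935-48339031 (plus strand) and had 515 to 956 reads a library. It ran from 15.04 through 17.5 to 24.7 CPM in controls and from 14.4 through 17.4 to 17.8 CPM after lens wear. The control libraries fell into separate levels: replicates 1, 5 and 6 were at 23.9, 24.7 and 23.1 CPM, and replicates 2, 3, 4 and 7 at 15.04, 17.4, 17.5 and 16.4 CPM. The higher level was that of the 3 control libraries without W-linked RNA. All 7 lens libraries were at the lower level, although 6 of them also had no W-linked RNA.

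**Figure D2:**
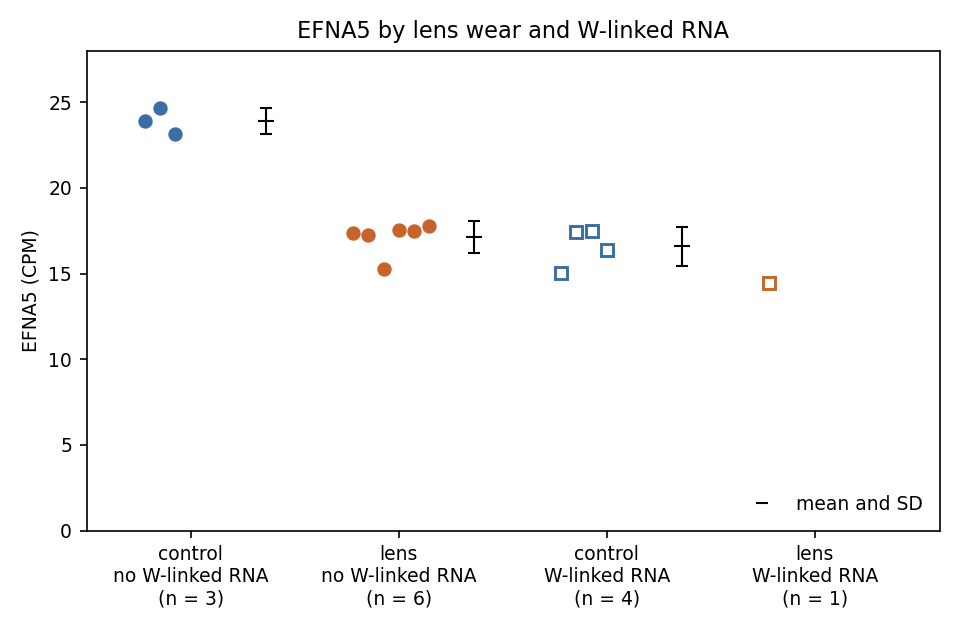
EFNA5 in CPM (linear axis from 0) by lens wear and by W-linked RNA, 1 point a library, with the mean and SD where there is more than 1. The 3 control libraries without W-linked RNA, at 23.1 to 24.7 CPM, lie above the 6 lens libraries without it, at 15.3 to 17.8 CPM, and above the 5 libraries with it.

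The comparison of libraries with and without W-linked RNA, with treatment in the model, asked whether a topographic gene followed the sex chromosomes. EFNA5 was called, and it was 0.41 lower with W-linked RNA on the log2 scale (difference -0.41, SE 0.07, adjusted p 0.000935 by limma). It was 1 of 7 topographic genes called, against 2.64% of all genes, and it kept this call under all 11 alternatives and with each library left out. Z-linked genes as a whole were lower in libraries with W-linked RNA, with a median of -0.37 over 665 genes, of which 51.4% were called lower. EFNA5 ranked 289 from the lowest among them, so its difference was near their middle. FOXD1, the other Z-linked member, differed by 0.03 (SE 0.10, adjusted p 0.957 by limma), which ranked it 611 of 665. For no topographic gene did the libraries with W-linked RNA lie apart from those without it, as they did for 2.36% of all genes and, with the former lower, for 2.17%. Bird Z-linked genes are only partly compensated for dosage between the sexes. The 5 autosomal members tested had differences of 0.0045 to 0.19, and none was called.

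With W-linked RNA as a covariate, EFNA5 was the 1 topographic gene of 7 that was called between lens and control, against 0.133% of all genes. It was lower by -0.38 on the log2 scale (SE 0.07, adjusted p 0.0363 by limma). It ranked 3 from the lowest among the 665 Z-linked genes, whose median in that fit was -0.0036. Among the 9 libraries without W-linked RNA the means were 23.9 ± 0.763 CPM in controls (SD, n = 3) and 17.1 ± 0.927 CPM after lens wear (SD, n = 6), 28.4% lower, with no overlap. EFNA5 was the 1 of 8 topographic genes without overlap in that subset, against 3.68% of all genes, and lens libraries lay wholly below controls for 1.89%. The log2 difference in it was -0.46 (SE 0.07, adjusted p 0.0684 by limma), which did not pass, as it did for 0.014% of all genes.

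The EFNA5 result rests on few libraries. The call with the covariate was lost under 4 other settings, among them median ratio scaling (adjusted p 0.105), and in 10 of the 14 fits that left out 1 library (-0.46 to -0.35, adjusted p 0.0276 to 0.148 by limma). Only 1 lens library had W-linked RNA, at 14.4 CPM, beside a mean of 16.6 ± 1.15 CPM in the controls with it (SD, n = 4). The lens effect with and without W-linked RNA differed by 0.27 on the log2 scale, a value that rests on that 1 library and has no spread of its own. In the main comparison, without the covariate, the EFNA5 difference was -0.21 (SE 0.10, adjusted p 0.391 by limma).

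**Figure D3:**
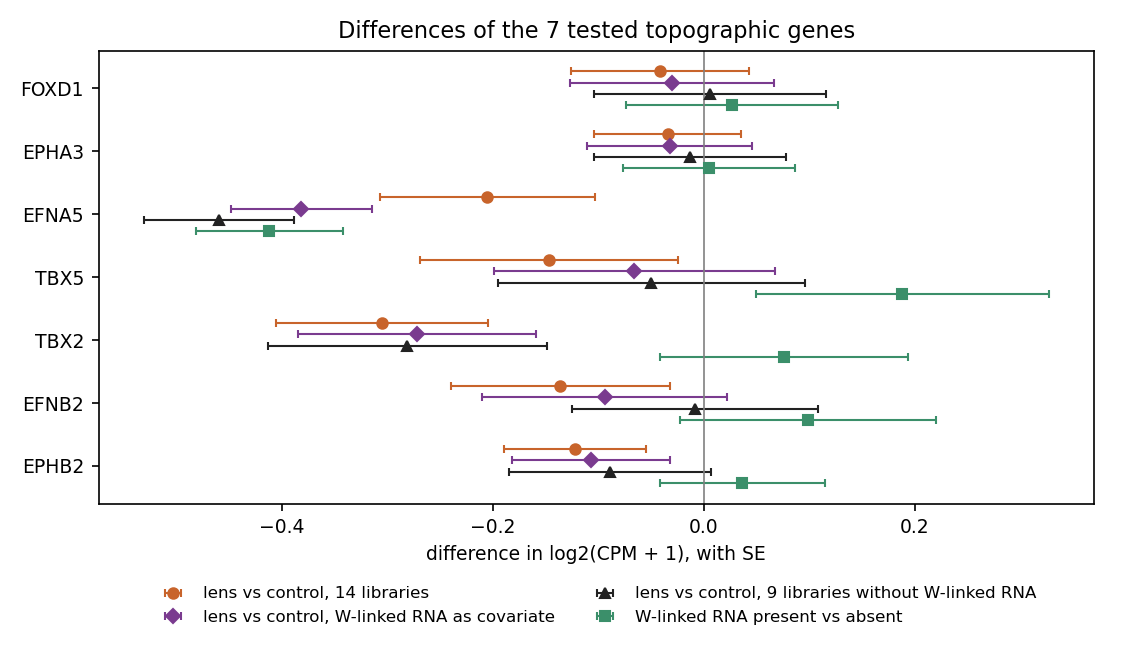
Differences in log2(CPM + 1) with SE for the 7 tested topographic genes: lens against control in 14 libraries, the same with W-linked RNA as a covariate, the same in the 9 libraries without W-linked RNA, and W-linked RNA present against absent. EFNA5 was called in the second and the fourth of these; the other genes were called in none.

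The other genes of each axis did not single out a pole. Of 15 nasal-temporal genes on a list that includes the members, 11 were tested and 0 were called by limma, beside 0.0771% of all genes. An unadjusted p under 0.05 was reached by 0 of the 11, beside 13.5% of all genes. All 11 differences were below 0, beside 63.3% of all genes, with a median of -0.06 beside -0.04 over all genes. HMX1, a nasal homeobox gene, differed by -0.12 (SE 0.09), and NEO1, the receptor for the tectal guidance cue RGMA, by -0.06 (SE 0.05). HMX1 had only 1 to 22 reads a library. The nasal EFNA5 is thus the 1 listed gene of its axis whose difference after accounting for W-linked RNA was called, and no temporal gene was called in the opposite direction.

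Of 18 dorsal-ventral genes, 14 were tested and 0 were called by limma, beside 0.0771% of all genes. Of the 14 differences, 13 were below 0, beside 63.3% of all genes, with a median of -0.13. Unadjusted, 4 had a p under 0.05, namely TBX2, PAX2 at -0.20 (SE 0.06), EFNB1 at -0.36 (SE 0.14) and EPHB1 at -0.24 (SE 0.11), beside 13.5% of all genes. With W-linked RNA as a covariate 2 were left, TBX2 and PAX2, beside 1604 of all 14259 genes tested. Among libraries without W-linked RNA there was 1, CHRDL1, beside 1152 of 14259. They include both poles, since EFNB1 is a dorsal ligand while PAX2 marks the ventral optic cup and stalk. PAX2 was at 0.306 ± 0.0896 CPM in controls and 0.137 ± 0.0831 CPM after lens wear (SD, n = 7 each). These values rest on only 5 to 15 reads a library in controls and 1 to 10 after lens wear. VAX1, the ventral relative of VAX2, differed by -0.09 (SE 0.10, adjusted p 0.707 by limma), on only 4 to 28 reads a library.

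The retinoic acid list holds enzymes that make the signal in dorsal and ventral zones and CYP26 enzymes that break it down between them. Of 8, 7 were tested and 0 were called by limma, beside 0.0771% of all genes, with a median of -0.0098. An unadjusted p under 0.05 was reached by 2, CYP1B1 and ALDH1A1, beside 13.5% of all genes. With W-linked RNA as a covariate it was 0 of 7, beside 1604 of all 14259 genes tested. In libraries without W-linked RNA it was 2 of 7, CYP1B1 and ALDH1A2, beside 1152 of 14259. CYP1B1, which can make retinoic acid in the chick embryo, was at -0.53 (SE 0.19, adjusted p 0.232). The dorsal ALDH1A1 was at 6.39 ± 1.35 CPM in controls and 8.67 ± 2.02 CPM after lens wear (SD, n = 7 each), a log2 difference of 0.38 (SE 0.14, adjusted p 0.258 by limma). ALDH1A1 is Z-linked and was lower with W-linked RNA (-0.49, adjusted p 0.0411 by limma), and with W-linked RNA as a covariate the lens difference was 0.17 (SE 0.12). ALDH1A2 differed by 0.22 (SE 0.12) and CYP26C1, with only 4 to 18 reads a library, by -0.10 (SE 0.07).

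Tissue next to the retina could also differ between dissections, and its markers were summed in each library. Pigment epithelium markers, of which 6 of 8 were tested and 6 were below 0, summed to 22.4 to 28.7 CPM in controls and 18.8 to 23.7 CPM after lens wear. Most of that sum was MITF, at 16.2 ± 1.04 CPM in controls and 15.1 ± 1.35 CPM after lens wear (SD, n = 7 each), whose difference of -0.09 (SE 0.06) was the nearest to 0 of the 6. Those with the smallest p were LRAT at -0.21 (SE 0.10), PMEL at -0.19 (SE 0.10), DCT at -0.21 (SE 0.13) and RPE65 at -0.38 (SE 0.24). Ciliary margin markers, with 4 of 7 tested and 3 below 0, summed to 11.6 to 17.0 CPM in controls and 9.92 to 14.6 CPM after lens wear, and OPTC, a proteoglycan of the vitreous made there, had the smallest p at -0.37 (SE 0.11, adjusted p 0.179 by limma). BMP7 differed by -0.23 (SE 0.11), COL9A1 by -0.20 (SE 0.15) and TFPI2 by 0.08 (SE 0.15).

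Optic nerve head glia markers summed to 101.6 to 145.2 CPM in controls and 92.5 to 175.6 CPM after lens wear, nearly all from MBP (log2 difference 0.24, SE 0.12). None of the marker genes was called by limma, beside 0.0771% of all genes. An unadjusted p under 0.05, which 13.5% of all genes had, was less rare. It was reached by 1 of the pigment epithelium, 2 of the ciliary margin, 1 of the optic nerve head (PAX2) and 4 of the retina markers. With W-linked RNA as a covariate these counts were 0, 1, 1 and 0, beside 1604 of all 14259 genes tested. No blood marker of 6 had a row. The neural retina markers were all 7 below 0, with GNAT2 at -0.22 (SE 0.10) and PAX6 at -0.20 (SE 0.09), beside 63.3% of all genes below 0. Their median was -0.20 in 14 libraries and -0.09 in those without W-linked RNA, where 6 of 7 were below 0. In the latter, 313 of 665 Z-linked genes and 7042 of 13594 genes on other chromosomes were below 0. Among the 9 libraries without W-linked RNA, pigment epithelium markers summed to 22.7 to 27.1 CPM in controls and 18.8 to 23.7 CPM after lens wear, and ciliary margin markers to 12.5 to 16.0 and 9.92 to 14.6 CPM. Optic nerve head glia markers went the other way, from 115.1 to 128.6 CPM in those controls and from 124.7 to 175.6 CPM after lens wear. The part of these markers in the EFNA5 difference was not tested. In whole tissue, fewer cells of a type and less RNA in each cell cannot be told apart.

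If the gradients lasted and libraries held different areas of retina, genes of the same pole would be high in the same libraries. Genes of opposite poles would be high in different ones. Pearson correlations of log2(CPM + 1) over the 14 libraries were computed for the 28 pairs of 8 genes, with p from 100000 permutations adjusted over the 28. The same-pole pairs, 5 in number, had a median r of 0.40 with 4 above 0, and the 7 opposite-pole pairs a median of 0.36 with 5 above 0. The 16 pairs across axes had a median of 0.24 with 14 above 0. EFNA2, which did not pass the filter and had 1 to 7 reads a library, entered these pairs. It gave the only same-pole pair below 0 (-0.25 with EFNA5) and opposite-pole r of 0.54 with FOXD1 and 0.30 with EPHA3. Medians without EFNA2 were not computed. The medians also moved with the setting. They were 0.24 for the same pole and 0.08 for opposite poles after median ratio scaling, 0.25 and 0.16 after quantile normalization, and 0.24 and 0.14 in the 9 libraries without W-linked RNA. Opposite-pole pairs had 5 of 7 above 0 under each of these, and same-pole pairs 4, 3 and 4 of 5. Over all pairs of tested genes, 56.3% were above 0. An absolute r of 0.6 or more was reached by 1 of 28 pairs, or 3.57%, against 6.46% of all pairs of tested genes. The tested genes do not include EFNA2.

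**Figure D4:**
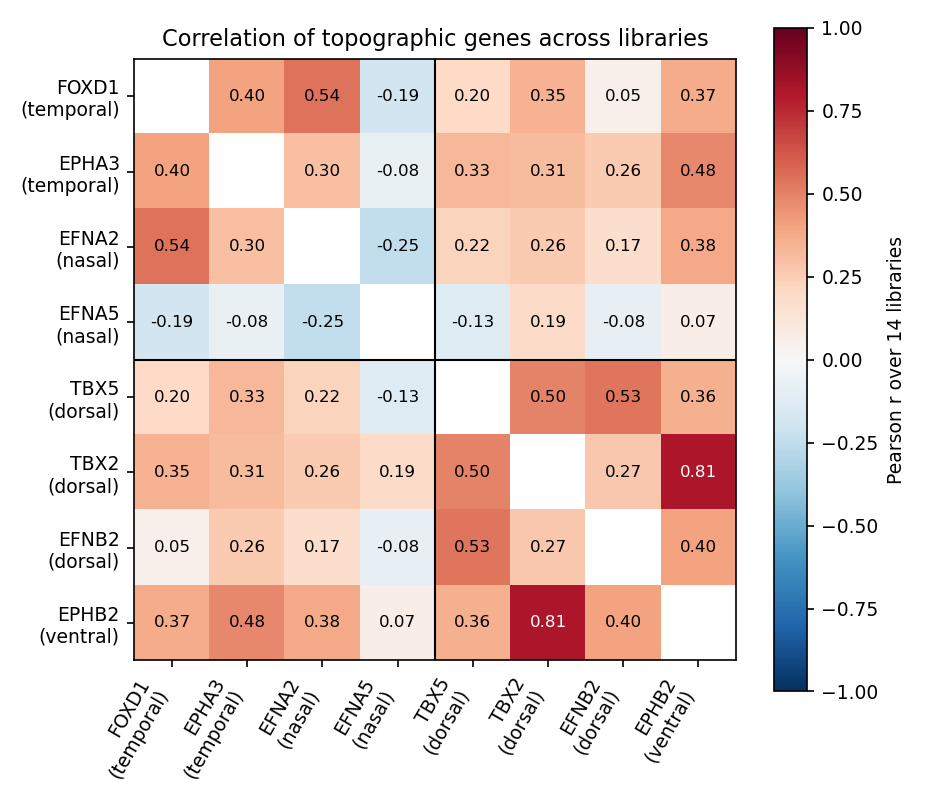
Pearson r over 14 libraries for each pair of the 8 listed genes, with the nasal-temporal genes first and the dorsal-ventral genes after the line. Only TBX2 with EPHB2, a dorsal and a ventral gene, reached an adjusted permutation p under 0.05, and opposite-pole pairs had r between -0.19 and 0.81.

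The 1 pair called joined genes of opposite poles: TBX2 and EPHB2 had r = 0.81 and rho = 0.82 (permutation p 0.00031, adjusted p 0.00868, and adjusted p 0.0188 for rho). Without the 2 libraries farthest from the median of TBX2, r was 0.82. Control replicates 1, 2, 6 and 7 were high for both genes, and lens replicates 2 and 3 were low for both. The call was lost after median ratio scaling (r = 0.75, permutation p adjusted 0.0518), after quantile normalization (r = 0.74, 0.0669), among the 9 libraries without W-linked RNA (r = 0.79, 0.340) and without lens replicate 2 (r = 0.77, 0.0524).

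The other dorsal-ventral pairs were not called. The dorsal pairs TBX5 with EFNB2 and TBX5 with TBX2 had r = 0.53 and r = 0.50, and TBX2 with EFNB2 had r = 0.27. Without control replicate 2 the first fell to 0.21, and without the 2 libraries farthest from the median of TBX5 the first was -0.14 and the second 0.05. Across poles, TBX5 with EPHB2 had r = 0.36 and EFNB2 with EPHB2 r = 0.40.

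On the nasal-temporal axis the temporal pair FOXD1 with EPHA3 had r = 0.40 (permutation p adjusted 0.555). The opposite-pole pair FOXD1 with EFNA2 had r = 0.54 (permutation p 0.0453, adjusted 0.443). EFNA2 with EPHA3 had r = 0.30, which was -0.02 among the libraries without W-linked RNA. EFNA5 lay at separate levels by treatment and W-linked RNA, so its pooled correlations (-0.25 with EFNA2, -0.19 with FOXD1 and -0.08 with EPHA3) describe that split as well. With treatment and W-linked RNA taken out, EFNA5 and EFNA2, both nasal, had r = -0.77 (permutation p adjusted 0.0126), where EFNA2 had 1 to 7 reads a library. The opposite-pole pair FOXD1 with EFNA5 ran from -0.51 to -0.04 over the 9 alternatives other than leaving 1 library out. It was called in none of them.

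Further pairs were chosen after the data were seen, with 14 pairs of FOXD1, TBX5 or TBX2 with other genes of known pole. The dorsal TBX2 and EFNB1 had r = 0.71 (rho = 0.78, permutation p adjusted over the 14 of 0.029), 0.81 without the 2 libraries farthest from the median of TBX2 and 0.54 with treatment and W-linked RNA taken out. The likewise dorsal TBX2 and ALDH1A1 had r = -0.72 (rho = -0.65, permutation p adjusted 0.029), -0.45 without the 2 libraries farthest from the median and -0.64 with treatment and W-linked RNA taken out. EFNB1 thus moved with TBX2, and ALDH1A1 moved against it. Among the libraries without W-linked RNA, r with TBX2 was 0.87 for EFNB1 and -0.85 for the Z-linked ALDH1A1. An r of 0.6 or more with TBX2 was reached by 1485 of 10639 named genes with a mean of at least 2 CPM on the rescaled sum. Genes that moved against TBX2 to that extent were not counted. Among all pairs of tested genes, 6.46% had an absolute r of 0.6 or more. TBX2 with the ventral VAX1 had r = 0.51 and FOXD1 with the nasal HMX1 r = 0.44, and neither was called. VAX1 had only 4 to 28 reads a library and HMX1 1 to 22.

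The spread of each gene over the 14 libraries was set beside that of the 200 tested genes nearest to it in mean level. The SD of log2(CPM + 1) was 0.23 for EFNA5, above 88.5% of its 200 like genes, 0.24 for TBX2 (77.5%), 0.25 for TBX5 (74%) and 0.14 for EPHB2 (63.5%). It was 0.16 for FOXD1 (60%), 0.13 for EPHA3 (51%) and 0.20 for EFNB2 (42.5%). All but EFNB2 were thus above the middle of their like genes, and none was above all of them. This SD over the 14 libraries also holds differences by treatment and by W-linked RNA.

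**Figure D5:**
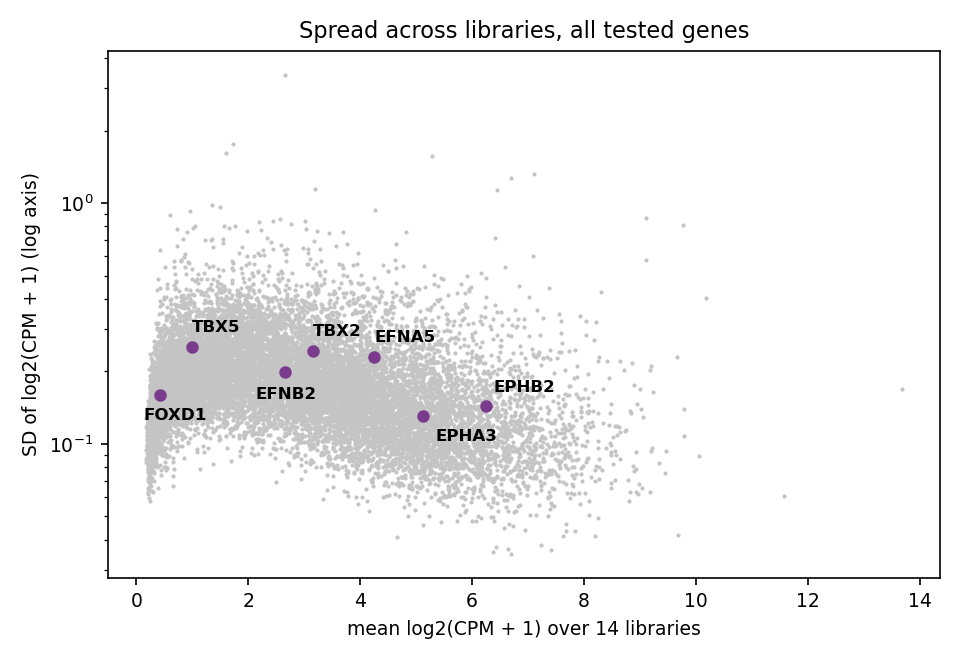
SD of log2(CPM + 1) over 14 libraries (log axis) against mean log2(CPM + 1) for the 14259 tested genes (grey), with the 7 tested topographic genes named. EFNA5 stood highest relative to genes of its level, above 88.5% of them, and all 7 lie inside the grey cloud.

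Control replicate 2 was the highest library for FOXD1, EFNA2, TBX5 and EFNB2, which are temporal, nasal, dorsal and dorsal. EFNA2 had only 7 reads there. The temporal EPHA3, at 37.9 CPM, was the highest of the controls in that library. The nasal EFNA5, at 15.04 CPM, was the lowest of the controls there, in a library with W-linked RNA, with which EFNA5 was lower. Control replicate 2 was also the highest library for 2908 of the 14259 tested genes, or 20.4%, the most of any library. Lens replicate 3 was the lowest for TBX5, TBX2 and EFNB2, the 3 dorsal members, and it was the lowest for 10.6% of tested genes. In that library the ventral EPHB2, at 67.6 CPM, was not high but among the 3 lowest of the 14.

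The genes most like each transcription factor over the 14 libraries were not topographic genes on the lists. FOXD1 was closest to CPLX3, a complexin of ribbon synapses (r = 0.87), PTRF, a caveolar coat protein (0.86), and CHST12, a chondroitin sulfotransferase (0.83). TBX5 was closest to TTBK1, a tau kinase (0.85), STRA6, the receptor for retinol-binding protein (0.84), and ADD2, a membrane-skeleton adducin (0.83). TBX2 was closest to WSCD2 (0.93), GRM5, a metabotropic glutamate receptor (0.92), and ANKRD28 (0.90). These r values are the highest of 10639 or more candidates and are given as a description; without control replicate 2 the r with CPLX3 was 0.79, with TTBK1 0.73 and with WSCD2 0.93.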

How the data were processed

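Total RNA from retina was depleted of ribosomal RNA and made into stranded libraries, per the labels' protocols. The authors deposited 1 table of CPM values, in which an offset of 0.0001 had been added. STAR, Partek and the build GRCg6a are named, with no role or version, in the submitters' processing notes. The counting method and its use of strand are not given in the sources used here, so overlapping antisense transcripts cannot be told apart. Chromosome names came from the RefSeq table of GRCg7b by symbol (15419 of 18631 matched), and positions from the deposited table.

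The CPM of listed genes summed to 303455 to 333242 a library, and 92.8 to 93.6% of low values were within 0.02 of whole multiples of 1 step, which gave approximate reads. The filter kept genes at 0.5 CPM, rescaled to the sum of the listed genes, in at least 7 libraries. limma 3.58.1 (trended eBayes, R 4.3.3) was run on log2(CPM + 1), whose fold changes are understated for low genes. Correlations used SciPy 1.17.1 and NumPy 2.4.6, and the limma fit was tested on simulated data. Intervals of counts were not used, and floors cover counting error only.

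The genes, lists and tests were chosen with earlier results of these data known. Genes named beyond the members were, from each list, up to 4 with the smallest p when none was called, and for 3 transcription factors the 3 genes of highest r with a mean of at least 2 CPM on the rescaled sum. A few of these genes are not reported here. Libraries were grouped by label, and by HINTW above 10 CPM, a split made from the data. Alternatives changed the pseudocount, filter, scaling, variance model, covariates and libraries.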

Additional observations from a re-analysis of the deposited data

Results flagged for a closer look

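Of 16 groups of 7 libraries screened, 8 genes by 2 treatments, 1 held a library far from the rest: EPHA3 in lens replicate 7, at 41.6 CPM, had a gap to the next library of 0.575 of the range of its group. Chance alone sets apart about 1 in 20 such groups.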

How the results depend on the processing

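In the comparison of all 14 libraries, 0 of the 7 tested topographic genes were called under any alternative but the fit with W-linked RNA as a covariate, which called 1 (EFNA5). The count over all genes, 11 in the main comparison, was 19 in that fit, 21 with array weights, 17 with the L or R that ends each sample name in the model, 1 after median ratio scaling, 0 after quantile normalization or without the filter, 2 among libraries without W-linked RNA, and 0 to 18 with each library left out. For these shifts the cause was not tested.

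The EFNA5 call with the covariate was lost after median ratio scaling (-0.34), without the filter (-0.38, with more genes adjusted over), after quantile normalization (-0.36) and after scaling to the same sum (-0.37). With each library left out it ran from -0.46 to -0.35. Among libraries without W-linked RNA it gained the call after scaling to the same sum (-0.47, adjusted p 0.0407 by limma) and without lens replicate 7 (-0.47, adjusted p 0.0400 by limma), and with each library left out it ran from -0.48 to -0.43.

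Of the 28 gene pairs, 0 were called after median ratio scaling, after quantile normalization and among libraries without W-linked RNA, 2 with treatment and W-linked RNA taken out, and 0 to 1 with each library left out.

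Values near 0 changed sign. The FOXD1 lens difference was 0.0055 among libraries without W-linked RNA and ran from -0.0874 to 0.0086 with each library left out. The EPHA3 lens difference was 0.0166 after median ratio scaling. The W-linked difference with array weights was -0.0073 for FOXD1, -0.0060 for EPHA3 and -0.0064 for EPHB2. For EPHA3 it was -0.0158 after median ratio scaling, -0.0100 after quantile normalization and -0.0212 at the same sum. With each library left out it ran from -0.0525 to 0.0713 for FOXD1, -0.0252 to 0.0377 for EPHA3 and -0.0427 to 0.0736 for EPHB2. Correlations changed sign for EFNA2 with EPHA3 (-0.0160) and EFNA5 with EPHA3 (0.0359) among libraries without W-linked RNA, EFNA5 with EPHA3 as Spearman's rho (0.0154), and TBX2 with EFNB2 after quantile normalization (-0.0312). With each library left out, EFNA5 with EPHA3 ran from -0.186 to 0.0345 and FOXD1 with EFNA5 from -0.361 to 0.0419.

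No paired analysis was possible because no number in the sample codes is shared between the groups. The planned test on recovered read counts was not run, since whole reads could not be recovered for nearly all genes. A fit to approximate reads (limma's voom), added after seeing the data, called 8 genes and 0 topographic genes. Depth limits EFNA2, FOXD1 and, beyond the members, genes such as PAX2, HMX1, VAX1 and CYP26C1. A single lens library carries W-linked RNA.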
